A study of Mus musculus with 22 samples.

Results

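The data described here are the RNA libraries of LSK cells that lost Chd8 while P53 was present, 3 libraries from Chd8-/- mice (Chd8 KO below), set against 3 from wild-type (WT) mice. LSK cells are the marrow fraction without lineage markers and with Sca-1 and Kit on the surface, which in the mouse holds the blood stem cells and multipotent progenitors. These 6 libraries were chosen by genotype and assay out of 22 samples in the series, of which 12 are RNA libraries. P53 KO and DKO (P53 and Chd8 both lost) libraries, 3 of each, entered the same statistical fit. Their levels and spread thus enter the filter on low genes and the standard errors and p-values of Chd8 KO against WT. They also show below where the response to Chd8 loss differs with P53, and where Chd8 KO stands apart from all other RNA libraries. All 4 genotypes were on the C57BL/6 strain, and in all of them, WT included, the labels record an injection of pI;pC, the agent that induces the deletion, and a sort of fresh, uncultured cells 6 days after deletion. The labels name neither the Cre line that removes Chd8, nor the ages of the mice, nor whether replicates came from separate mice. The p-values below therefore measure the spread between libraries within the 4 genotypes, which may be technical. The 4 ATAC-seq and 6 CUT&RUN samples of the series were not analysed here.

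CHD8 is an ATP-dependent chromatin remodeler of the CHD family, which binds DNA at promoters and is known to bind P53 and histone H1. P53 is a transcription factor that, when stabilised, switches on genes for cell cycle arrest, apoptosis, DNA repair and metabolic adjustment, and its own inhibitors. In the marrow, multipotent progenitors carry low levels of lymphoid, myeloid and erythroid genes before they commit, a state called lineage priming, and the LSK fraction mixes stem cells with such primed progenitors.

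Expression was deposited as TPM (transcript abundance scaled to a fixed library total), a length-corrected share of a library's RNA, so read depth is unknown and no counting interval can be given. Transcripts were summed per gene symbol, and 13162 of 33641 symbols averaged 1 TPM or more across the 12 RNA libraries and were tested. Differences are given on the log2(TPM + 1) scale with a standard error, which understates changes of low genes, and a gene is called at a Benjamini-Hochberg adjusted p below 0.05 in limma. Within-group correlations of log2(TPM + 1) were 0.957 to 0.978 in the Chd8 KO and 0.955 to 0.973 in the WT libraries. All 6 came from the same sequencing run by their file names. Mitochondrial transcripts made 5.84 to 6.55% of TPM in Chd8 KO and 5.33 to 6.97% in WT, and ribosomal protein transcripts 15.8 to 16.7% in Chd8 KO and 16.7 to 18.6% in WT.

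A pair of libraries stood apart from the rest of their group. WT 3 had 1.16 TPM over 4 Y-linked genes, against 94.2 to 116 TPM in the 3 Chd8 KO and 113 and 126 TPM in the other WT libraries. Its mature neutrophil and monocyte list summed to 2136.5 TPM, against 550.36 to 796.62 TPM in Chd8 KO and 432.04 and 537.93 TPM in the other WT libraries, and its interferon-stimulated list to 8209.4 TPM, against 5719.7 to 7142.4 TPM in Chd8 KO and 5110.2 and 5519.1 TPM in the other WT libraries. Chd8 KO 1 had 3992 TPM of Igkc, the antibody kappa light chain constant gene, where the other Chd8 KO libraries had 337 and 469 TPM. Values that rest on these libraries are given below with and without them.

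Chd8 itself (chr14:52198151-52258042, build GRCm38 throughout) was lower but not absent. Its level was 28.5, 26.2 and 35.6 TPM in the Chd8 KO libraries, against 67.4, 48.2 and 73.9 TPM in the WT libraries, a log2 change of -1.03 ± 0.18 (SE, adjusted p = 0.00357). The transcript ENSMUST00000200169.4, which held part of this signal, had 8.2, 9.25 and 12.7 TPM in Chd8 KO, against 29.2, 22.5 and 29 TPM in WT. In both measures every Chd8 KO library lay below every WT library. The sources used here do not give the exons that the deletion removes, and reads from the rest of the gene cannot be told apart from undeleted cells. Trp53, which encodes P53, did not pass the test, at 268, 244 and 252 TPM in Chd8 KO and 268, 264 and 230 TPM in WT.

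Of the genes that define the sort, Kit, the stem cell factor receptor, had 180, 191 and 273 TPM in Chd8 KO and 268, 202 and 255 TPM in WT, with overlapping groups and no call. Ly6a, which encodes Sca-1, had 356, 352 and 180 TPM in Chd8 KO, against 122, 98.4 and 225 TPM in WT. It was called higher (1.01 ± 0.30, adjusted p = 0.0440), but the groups overlapped through Chd8 KO 3 and WT 3, and the call was lost under 10 alternative settings. Defining markers of other blood lineages differed in level. T cell markers summed to 4.53 to 8.41 TPM in Chd8 KO and 3.56 to 5.38 TPM in WT, and natural killer (NK) markers to 0.743 to 1.09 TPM in Chd8 KO and 5.31 to 7.01 TPM in WT. B cell markers summed to 0.985 to 3.42 TPM in Chd8 KO and 34.6 to 103 TPM in WT. Markers of eosinophils, basophils and mast cells summed to 119 to 158 TPM in Chd8 KO and 773 to 1762 TPM in WT. Neutrophil markers summed to 28.5 to 103 TPM in Chd8 KO and 4.75 to 283 TPM in WT, the highest in WT 3. Erythroid markers summed to 39.8 to 49.8 TPM in Chd8 KO and 61.6 to 115 TPM in WT. Monocyte and macrophage markers summed to 6.58 to 11.4 TPM in Chd8 KO and 12.7 to 52.6 TPM in WT, and megakaryocyte markers to 55.1 to 78.4 TPM in Chd8 KO and 79.5 to 155 TPM in WT. No defining marker was at 0 in all 3 libraries of either group.

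Chd8 KO differed from WT at 2189 genes, 16.6% of those tested, with 1270 higher (9.65%) and 919 lower (6.98%). The libraries of the 2 groups did not overlap at 22.7% of genes upward and 14.4% downward, called or not. The split depended on the scaling: after division by median-of-ratios size factors it was 1038 higher and 1144 lower, and without WT 2 it was 1044 higher and 1057 lower. The total was 1278 without WT 1, 1154 without Chd8 KO 1, 1301 without Chd8 KO 2 and 1417 without Chd8 KO 3. It was 2101 without WT 2, 1554 without WT 3, 1680 with a Y-linked covariate and 1899 in the 6 libraries alone. More genes were called without P53 KO 1 and P53 KO 2, from another sequencing run, which leaves 1 P53 KO library. The falls were the larger changes. At least 4-fold changes, on the TPM + 1 scale, were met by 51 called genes upward and 112 downward, while 1074 called genes changed by less than 1.5-fold. Of the 51, 15 belonged to the lists of P53 targets and 3 to lists of committed lineages, and 13 were predicted genes, pseudogenes or clone names. These lists held 100 and 221 of the 13162 genes tested. Of the 112, none belonged to the P53 target lists, 46 to the lineage lists, and 6 were predicted genes, pseudogenes or clone names. Antigen receptor genes made 20 of the 112, some of them, such as Ighm and Trbc1, also counted in the lineage lists. A further 2 antigen receptor segments were among the 51.

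**Figure D1:**
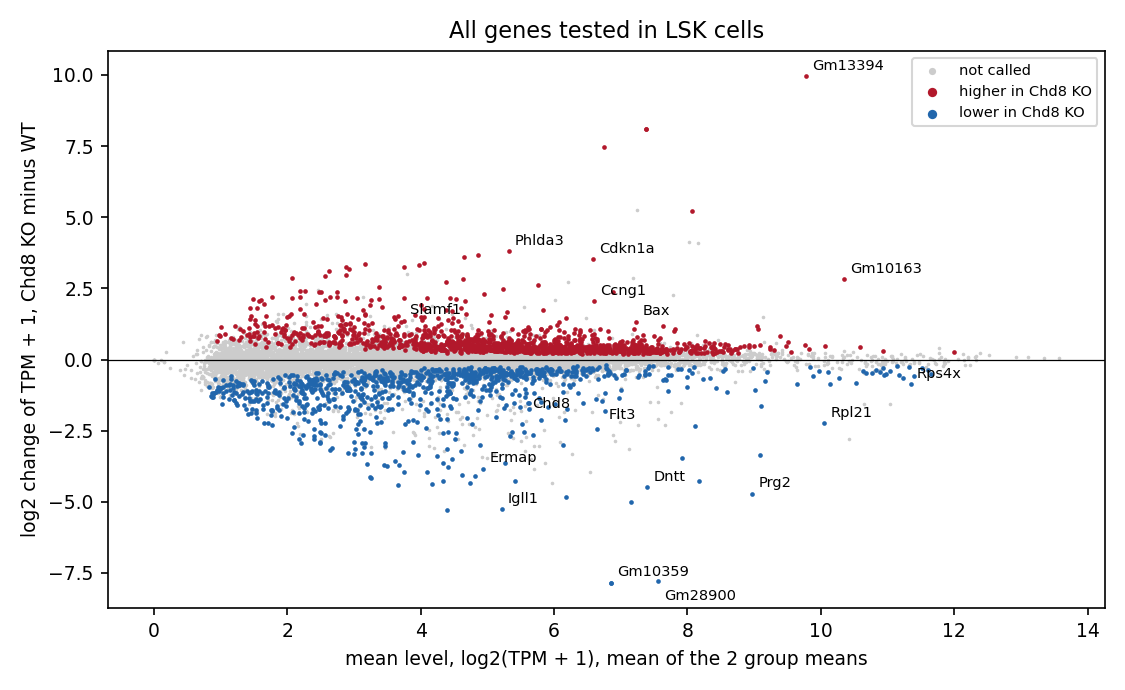
Change in Chd8 KO relative to WT (y axis, log2 difference of TPM + 1) against mean level (x axis, log2 scale) for the 13162 genes tested, 1 point a gene, with the 1270 genes called higher and 919 called lower in colour. The P53 targets Cdkn1a and Phlda3 lie among the largest rises, and the B cell gene Igll1 and the eosinophil gene Prg2 among the largest falls.

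P53 target genes rose in part. Of 108 listed targets 100 were tested, 36 were called higher, 2 were called lower and 62 were not called, with a median log2 change of 0.27 beside 0.02 over all genes. Of the 36, 29 rose at least 2-fold, and for 31 the lowest Chd8 KO library lay above the highest of the other 9 RNA libraries, P53 KO and DKO included. Of all 1270 genes called higher 733 met that condition, 57.7% of them and 5.57% of all genes tested. Without Chd8 KO 1, 29 were higher, all of them among the 36, and without WT 2 there were 29 higher and 7 lower. Among all genes tested 9.65% were higher and 6.98% lower. The lists were chosen with earlier results of these data known, so their shares are descriptive only. The targets are described by role.

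Arrest genes were led by Cdkn1a (chr17:29090979-29100722), the p21 inhibitor of cyclin-dependent kinases. Its level was 244, 171 and 116 TPM in Chd8 KO, against 14.3, 12.8 and 13.9 TPM in WT (3.54 ± 0.32, adjusted p = 7.32e-05). All 3 Chd8 KO libraries were far above WT and Chd8 KO 1 was the highest, an order met in most targets below. The transcripts of Cdkn1a did not move alike. The major one, ENSMUST00000023829.6, had 185, 133 and 89.6 TPM in Chd8 KO and 13.2, 12.3 and 12.9 TPM in WT, whereas ENSMUST00000119901.7 had 52.6, 35.8 and 25 TPM in Chd8 KO and was listed at 0 in every WT library. Psrc1, a microtubule-binding protein, had 241, 166 and 183 TPM in Chd8 KO, against 37.4, 33.2 and 40.6 TPM in WT (2.37 ± 0.17, adjusted p = 2.25e-05). Gtse1, a microtubule-associated protein that restrains P53, had 114, 76.6 and 73 TPM in Chd8 KO, against 22.3, 25.4 and 26.8 TPM in WT (1.76 ± 0.16, adjusted p = 7.78e-05). Neither group pair overlapped. Gadd45a, a stress sensor that P53 also induces, went the other way, at 12.5, 11.4 and 10.1 TPM in Chd8 KO and 22.1, 18.4 and 25.7 TPM in WT (-0.90 ± 0.17, adjusted p = 0.00555). In all, 4 of 14 tested arrest targets were higher and 1 lower, and Btg2, an antiproliferative gene, was not called (-0.57 ± 0.30, adjusted p = 0.221).

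Death genes gave the largest share, with 12 of 20 higher and none lower (median 0.85), and 9 to 11 higher when any 1 library was left out. Eda2r, a death receptor of the TNF receptor family, had 19.5, 13.5 and 13.3 TPM in Chd8 KO, against 0.765, 0.537 and 0.492 TPM in WT (3.35 ± 0.19, adjusted p = 3.66e-06). Zmat3, an RNA-binding zinc finger protein, had 56.4, 38.5 and 41.9 TPM in Chd8 KO, against 3.48, 3.52 and 1.67 TPM in WT (3.60 ± 0.21). Bax and Bbc3, which encode the mitochondrial death effector BAX and its activator PUMA, were higher in every Chd8 KO library: Bax had 249, 207 and 188 TPM in Chd8 KO and 87.9, 84.7 and 79.1 TPM in WT. Bbc3 had 46.6, 37.1 and 36.5 TPM in Chd8 KO, against 9.35, 8.84 and 8.3 TPM in WT (2.05 ± 0.15, adjusted p = 1.88e-05). A minor Bax transcript, ENSMUST00000210392.1, rose more (1.99 ± 0.19) than the major one, ENSMUST00000033093.9 (1.19 ± 0.11), though that difference was not tested. Perp, a membrane protein of desmosomes, had 24.4, 13.4 and 12.7 TPM in Chd8 KO, against 1.64, 2.51 and 1.66 TPM in WT (2.56 ± 0.24, adjusted p = 0.00011). Tnfrsf10b, the TRAIL receptor, had 15.1, 11 and 11.5 TPM in Chd8 KO, against 3.14, 3.03 and 2.9 TPM in WT. Pmaip1, which encodes the BH3-only protein NOXA, was called (1.51 ± 0.39, adjusted p = 0.024) but overlapped: WT 3 had 5.75 TPM and Chd8 KO 3 had 5.55 TPM, and the call was lost under 6 settings. Fas, a death receptor that P53 induces in other tissues, was not called, at 3.17, 3.42 and 2.1 TPM in Chd8 KO and 1.84, 1.35 and 3.32 TPM in WT.

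Among genes that feed back on P53, 2 of 11 were higher, and 1 without Chd8 KO 1 or without WT 2. Ccng1, which encodes cyclin G1, had 179, 152 and 136 TPM in Chd8 KO, against 35.4, 39.5 and 34.1 TPM in WT (2.06 ± 0.14, adjusted p = 1.55e-05). Trp53inp1, a nuclear cofactor of P53, had 49.3, 31.9 and 32.4 TPM in Chd8 KO, against 20.9, 12.1 and 21.6 TPM in WT, with no overlap but a call that was lost without Chd8 KO 1 or WT 2. Mdm2, the ubiquitin ligase that degrades P53, missed the threshold over the whole gene, with 65.2, 50.6 and 54.1 TPM in Chd8 KO and 40.5, 35.4 and 49.4 TPM in WT (0.44 ± 0.16, adjusted p = 0.0807). It was called when WT 3 was left out. Its leading transcript ENSMUST00000020408.15 was called, at 36.6, 32.4 and 26.3 TPM in Chd8 KO and 19, 20.4 and 19.7 TPM in WT (0.65 ± 0.13, adjusted p = 0.0216).

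Repair and nucleotide supply genes split. Mgmt, which removes alkyl groups from guanine, had 26.8, 23 and 23.6 TPM in Chd8 KO, against 6.84, 5.89 and 4.69 TPM in WT (1.91 ± 0.15, adjusted p = 2.97e-05). Rps27l, a ribosomal protein paralog linked to P53 stability, had 779, 759 and 661 TPM in Chd8 KO, against 333, 352 and 280 TPM in WT (1.19 ± 0.12, adjusted p = 0.000138). Ercc5, a nuclease of nucleotide excision repair, had 21.8, 16.3 and 22.7 TPM in Chd8 KO and 10.7, 9.87 and 12.6 TPM in WT (0.81 ± 0.15, adjusted p = 0.0047). In these 3 genes the groups stayed apart. The excision repair sensors Ddb2 (-0.52 ± 0.22) and Xpc (-0.22 ± 0.13) and the ribonucleotide reductase subunit Rrm2b (-0.07 ± 0.18) were not called, and the list had 4 of 14 members higher with a median of 0.10.

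In the metabolism and redox list 9 of 23 were higher and none lower. Sesn2, a stress-induced inhibitor of mTORC1, had 36, 23.2 and 22.2 TPM in Chd8 KO, against 5.16, 5.53 and 4.58 TPM in WT (2.18 ± 0.17, adjusted p = 3.59e-05), while its paralogs Sesn1 (-0.04 ± 0.13) and Sesn3 (-0.03 ± 0.18) were not called. Ddit4, another mTORC1 inhibitor, had 33.6, 23.5 and 24.2 TPM in Chd8 KO and 10.2, 8.13 and 9.08 TPM in WT. Ak1, an adenylate kinase, had 56.3, 32.9 and 38.6 TPM in Chd8 KO, against 5.81, 4.46 and 4.81 TPM in WT (2.83 ± 0.23, adjusted p = 3.72e-05). The thiamine transporter Slc19a2 and the stress cytokine Gdf15 behaved alike in that no library overlapped: Slc19a2 had 30.3, 22.4 and 21.3 TPM in Chd8 KO and 6.67, 6.09 and 6.39 TPM in WT. Gdf15 had 9.31, 4.92 and 6.04 TPM in Chd8 KO, against 0.541, 0.427 and 0.317 TPM in WT (2.41 ± 0.26, adjusted p = 0.000241).

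The signalling and membrane list had 7 of 21 higher and 1 lower, and 3 lower without WT 2. Phlda3 (chromosome 1 in the mouse), which blocks AKT at the membrane, had 87, 75 and 58.2 TPM in Chd8 KO, against 5.41, 5.55 and 2.39 TPM in WT (3.81 ± 0.26, adjusted p = 1.55e-05). Sulf2, which trims heparan sulfate outside the cell, had 70.1, 46 and 42.1 TPM in Chd8 KO, against 3.6, 3.8 and 2.12 TPM in WT (3.68 ± 0.26). Epha2, an ephrin receptor, had 41.5, 33.5 and 34.4 TPM in Chd8 KO, against 6.76, 5.19 and 11.6 TPM in WT (2.14 ± 0.35, adjusted p = 0.00303). No library overlapped in any of them. The member called lower was Bcl6, a transcriptional repressor, at 1.77, 1.77 and 1.48 TPM in Chd8 KO and 3.7, 2.96 and 4.6 TPM in WT (-0.82 ± 0.18, adjusted p = 0.0127).

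**Figure D2:**
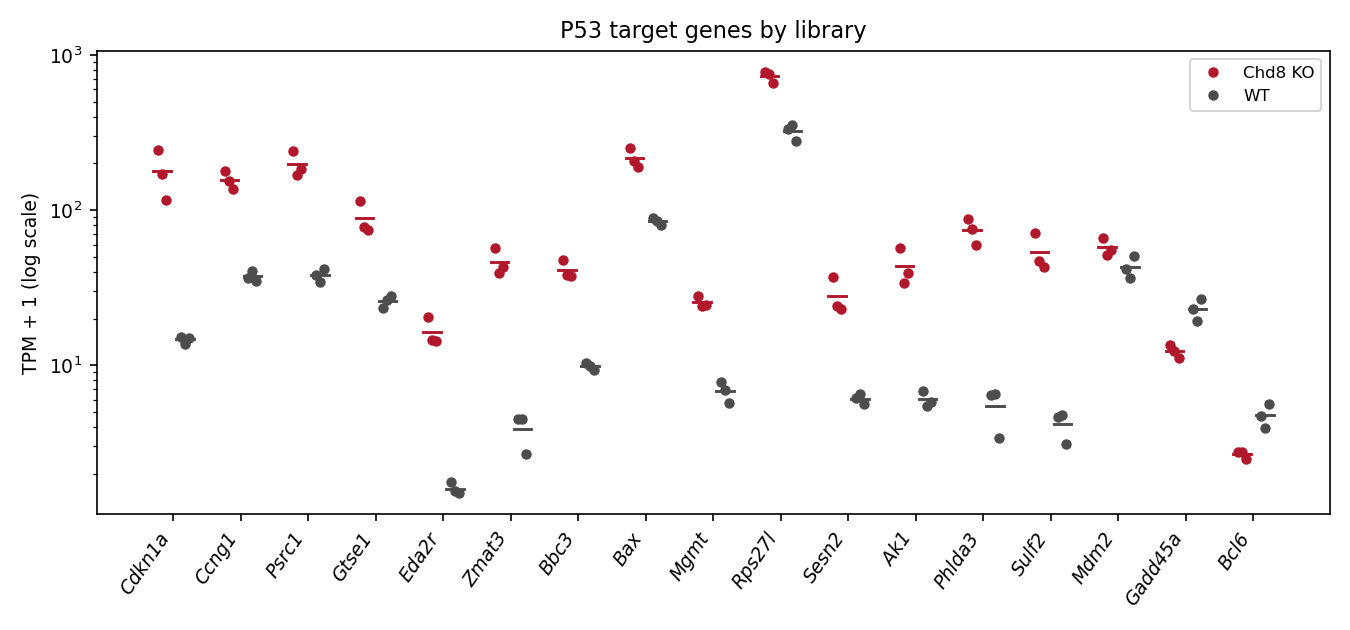
TPM + 1 on a log axis (y) of named P53 targets in each library (points, with a line at the group mean), Chd8 KO to the left of WT for every gene. Cdkn1a stands at 116 to 244 TPM in the 3 Chd8 KO libraries and 12.8 to 14.3 TPM in the 3 WT libraries, while Mdm2 lies at 50.6 to 65.2 TPM in Chd8 KO and 35.4 to 49.4 TPM in WT.

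The promoters of the called targets were searched for the p53 response element by its letters. The window ran from 250 bases before to 50 after the annotated start (RefSeq, GRCm38.p6). The element was taken as 2 half-sites of 10 bases side by side, with the C and G of each half-site core exact and at most 2 mismatches elsewhere. The consensus is self-complementary, so a search of 1 strand covers both. A match was present in 44 of 9444 tested genes with a promoter sequence (0.466%), in 14 of 958 called higher (1.46%), in 0 of 676 called lower and in 30 of 7810 not called (0.384%). In the P53 target lists 7 of 86 promoters held one (8.14%), and 6 of the 30 belonging to members called higher (20%). Such a match is a description of the letters, not a bound site. The 4 with 1 mismatch are shown because their genes carry the arrest, feedback and repair results above, with the match in capitals: Cdkn1a at chr17:29090729-29091028 on the + strand, Ccng1 at chr11:40755237-40755536 on the - strand, Gtse1 at chr15:85859696-85859995 on the + strand and Rps27l at chr9:66946163-66946462 on the + strand.
Cdkn1a: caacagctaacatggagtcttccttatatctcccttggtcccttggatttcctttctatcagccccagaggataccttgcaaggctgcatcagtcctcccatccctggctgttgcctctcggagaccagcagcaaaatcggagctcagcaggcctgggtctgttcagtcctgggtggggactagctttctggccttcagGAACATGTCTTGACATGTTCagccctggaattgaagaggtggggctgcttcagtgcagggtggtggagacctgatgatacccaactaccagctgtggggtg
Ccng1: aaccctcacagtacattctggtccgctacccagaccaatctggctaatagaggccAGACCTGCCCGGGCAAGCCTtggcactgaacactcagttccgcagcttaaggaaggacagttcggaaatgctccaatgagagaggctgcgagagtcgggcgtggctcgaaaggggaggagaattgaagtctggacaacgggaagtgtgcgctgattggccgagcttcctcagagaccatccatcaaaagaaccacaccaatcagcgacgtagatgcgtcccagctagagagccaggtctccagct
Gtse1: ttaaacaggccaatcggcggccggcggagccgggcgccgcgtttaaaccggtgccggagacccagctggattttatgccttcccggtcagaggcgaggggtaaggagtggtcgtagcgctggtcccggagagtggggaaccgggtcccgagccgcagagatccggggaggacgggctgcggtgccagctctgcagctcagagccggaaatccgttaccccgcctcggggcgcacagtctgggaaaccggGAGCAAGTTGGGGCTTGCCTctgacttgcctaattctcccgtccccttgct
Rps27l: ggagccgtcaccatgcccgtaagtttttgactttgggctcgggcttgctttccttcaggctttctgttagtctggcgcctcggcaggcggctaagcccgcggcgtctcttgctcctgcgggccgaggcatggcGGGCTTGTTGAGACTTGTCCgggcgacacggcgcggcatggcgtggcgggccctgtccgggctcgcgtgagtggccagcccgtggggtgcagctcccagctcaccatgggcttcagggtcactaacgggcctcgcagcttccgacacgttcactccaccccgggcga
The matches begin at -51 in Cdkn1a, -195 in Ccng1, -1 in Gtse1 and -117 in Rps27l relative to the start. Zfp365, at 15.9, 9.98 and 10.5 TPM in Chd8 KO and 1.3, 0.286 and 0.543 TPM in WT, and Cd80, a costimulatory ligand, at 3.46, 2.27 and 2.27 TPM in Chd8 KO and 0.571, 0.573 and 0.976 TPM in WT, also held one, with 2 mismatches each.

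Large rises also fell on genes outside the P53 lists. Tnfsf4, the OX40 ligand of the TNF family, had 34.9, 27.4 and 21 TPM in Chd8 KO, against 1.86, 1.65 and 1.97 TPM in WT (3.32 ± 0.18, adjusted p = 3.49e-06). Mmp2, a secreted gelatinase, had 42.9, 29.6 and 33.3 TPM in Chd8 KO, against 5.57, 3.48 and 4.56 TPM in WT. Serpine2, an inhibitor of thrombin and plasminogen activators, had 139, 78.1 and 62.3 TPM in Chd8 KO, against 11.6, 13.4 and 15.6 TPM in WT (2.62 ± 0.33, adjusted p = 0.000672). The extracellular matrix gene Hmcn2 had 15.6, 10.7 and 11.8 TPM in Chd8 KO, against 0.68, 0.341 and 0.465 TPM in WT. In all of these genes each Chd8 KO library exceeded each WT library several-fold. Zfp990, a zinc finger gene, had 24, 28.7 and 32.4 TPM in Chd8 KO, against 0.952, 0.392 and 6.74 TPM in WT, so WT 3 stood apart from the other WT libraries. Serpins as a family had 5 of 12 members higher, and 2 to 4 when 1 library was left out. The largest of them by TPM was Serpina3g at 822, 845 and 504 TPM in Chd8 KO and 324, 338 and 349 TPM in WT.

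Of 259 genes in the lists of lymphoid, granulocytic, erythroid and other lineages 221 were tested, 80 were lower, 7 were higher and 134 were not called, with a median log2 change of -0.66. Leaving out 1 library gave 63 to 75 lower, and 16 higher without WT 3. The shares over all genes tested were 6.98% lower and 9.65% higher. These lists too were chosen with earlier results of these data known. The data are bulk RNA, so fewer cells of a type in the sorted fraction and less RNA per cell cannot be told apart. Ly6a, used to sort the cells, was itself called higher in Chd8 KO, and the part of the sort in these results was not tested.

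The lymphoid priming list had 17 of 27 members lower and 2 higher (median -1.35), and 14 to 17 lower and 0 to 2 higher when 1 library was left out. Dntt, the template-free polymerase of antigen receptor joining, had 2.48, 15.8 and 41.9 TPM in Chd8 KO, against 442, 276 and 229 TPM in WT (-4.49 ± 0.68, adjusted p = 0.00196). Il7r, the interleukin-7 receptor, had 0.389, 0.532 and 0.86 TPM in Chd8 KO, against 16.9, 9.2 and 18.5 TPM in WT (-3.27 ± 0.40, adjusted p = 0.000537). Rag2, a subunit of the recombinase, had 0.376, 0.556 and 0.936 TPM in Chd8 KO, against 11.6, 7.59 and 8.63 TPM in WT. The groups were fully apart, and the level of Dntt varied more among the Chd8 KO libraries than those of Il7r and Rag2. Flt3, the cytokine receptor of lymphoid-primed progenitors, had 28.6, 53.7 and 98.3 TPM in Chd8 KO, against 188, 113 and 149 TPM in WT (-1.44 ± 0.36, adjusted p = 0.0208), a call lost under 5 settings, among them leaving out Chd8 KO 1, Chd8 KO 2 or WT 1. Tcf7, a transcription factor of T cell specification, had 1.18, 1 and 1.08 TPM in Chd8 KO, against 10.9, 8 and 7.58 TPM in WT. Cnn3, an actin-binding calponin, had 6.77, 7.05 and 6.98 TPM in Chd8 KO, against 34.2, 26.3 and 39.7 TPM in WT (-2.10 ± 0.16, adjusted p = 3.1e-05). These 2 genes were nearly constant across the Chd8 KO libraries.

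In the B cell list 12 of 24 were lower and none higher (median -2.08), and 8 were lower without WT 1. Igll1, part of the surrogate light chain, had 0.401, 0.578 and 1.13 TPM in Chd8 KO, against 74, 31.1 and 110 TPM in WT (-5.26 ± 0.92, adjusted p = 0.0042). Cd79a, which couples the B cell receptor to signalling, had 3.34, 0.455 and 1.14 TPM in Chd8 KO, against 52.3, 28.7 and 67.9 TPM in WT. Its cytoplasmic adaptor Blnk had 0.726, 0.627 and 1.54 TPM in Chd8 KO, against 33.6, 15.7 and 44.4 TPM in WT (-3.95 ± 0.59, adjusted p = 0.00191). Each Chd8 KO library lay more than 10-fold below the lowest WT library for Igll1 and Blnk, and WT 2 was the lowest WT library for all 3 genes. The transcription factors Pax5 (-3.28 ± 0.74, adjusted p = 0.014) and Ebf1 (-2.91 ± 0.71, adjusted p = 0.0194) fell too, with calls lost under 3 and 5 settings. Ighm, the IgM heavy chain, which progenitors transcribe before rearrangement, had 21.7, 39.6 and 61.4 TPM in Chd8 KO, against 506, 273 and 548 TPM in WT.

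The antibody genes of plasma cells did not follow this pattern in 1 library; they were picked after their values were seen. Igkc had 3992, 337 and 469 TPM in Chd8 KO, against 3125, 2846 and 1873 TPM in WT (-1.57 ± 0.79, adjusted p = 0.203). Igha, the IgA heavy chain, had 3205, 247 and 347 TPM in Chd8 KO and 2346, 2137 and 1388 TPM in WT, and Jchain, which joins IgA units, had 441, 39.5 and 58.8 TPM in Chd8 KO and 338, 337 and 217 TPM in WT. In each, Chd8 KO 1 exceeded all WT libraries while the other Chd8 KO libraries lay below them. Without Chd8 KO 1 all 3 genes were called lower. Of the 36 P53 targets called higher, 32 were also highest in Chd8 KO 1, and 29 of the 36 kept their call without that library.

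The T and NK cell list had 11 of 19 lower and none higher (median -1.34), with 10 or 11 lower when 1 library was left out. Only 2 were lower under a filter of at least 5 TPM, which removes most of these low genes. Trbc1, a T cell receptor beta constant gene, had 1.52, 1.41 and 1.65 TPM in Chd8 KO, against 22.3, 14.1 and 19.2 TPM in WT (-2.93 ± 0.18, adjusted p = 6.7e-06). Il2rb, a receptor chain for interleukin-2 and interleukin-15, had 0.916, 0.636 and 0.586 TPM in Chd8 KO, against 4.36, 4.31 and 4.88 TPM in WT. Ncr1, an NK activating receptor, had 0.201, 0.151 and 0.167 TPM in Chd8 KO, against 2.72, 4.34 and 2.98 TPM in WT. Within each group these 3 genes were tight and the groups stayed apart. Cd4, the coreceptor of helper T cells, was not called, at 3.43, 4.54 and 6.73 TPM in Chd8 KO and 3.51, 2.63 and 2.63 TPM in WT.

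**Figure D3:**
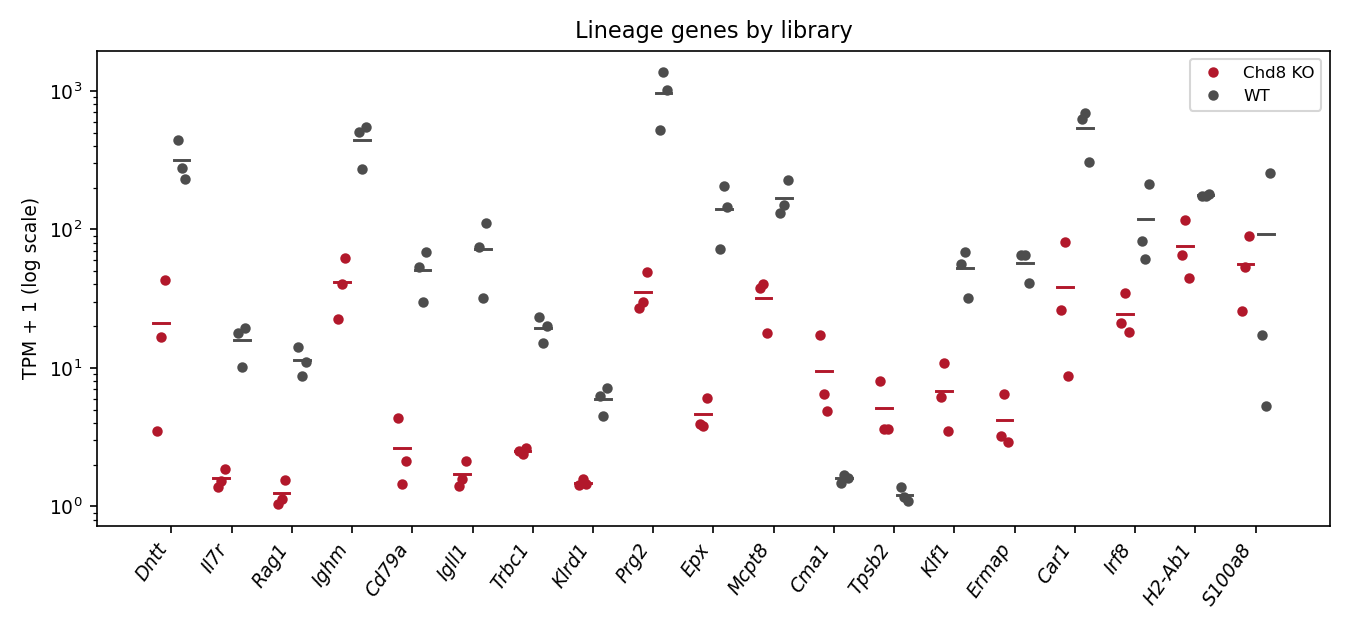
TPM + 1 on a log axis (y) of named lineage genes in each library (points, with a line at the group mean), Chd8 KO to the left of WT for every gene. Dntt, Igll1, Prg2 and Ermap lie lower in every Chd8 KO library than in any WT library, whereas the mast cell protease Cma1 lies higher in every Chd8 KO library, at 3.86 to 16.3 TPM in Chd8 KO and 0.481 to 0.699 TPM in WT.

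The list of eosinophil, basophil and mast cell genes had 10 of 25 lower and 3 higher. When 1 library was left out it had 7 to 11 lower and 2 to 3 higher. Prg2, the eosinophil major basic protein, had 26.2, 28.9 and 48.6 TPM in Chd8 KO, against 524, 1359 and 1018 TPM in WT (-4.71 ± 0.72, adjusted p = 0.00214). Ear2, an eosinophil ribonuclease, had 4.86, 7.15 and 9.42 TPM in Chd8 KO, against 132, 386 and 314 TPM in WT. Epx, the eosinophil peroxidase, had 2.94, 2.8 and 5.09 TPM in Chd8 KO, against 71.3, 203 and 143 TPM in WT. The groups were far apart, with WT 1 the lowest WT library in all 3 genes. Ear2 and its relative Ear6 are near-identical members of a family, and the sources used here do not give how reads were shared between such copies, which leaves their separate values uncertain. The basophil protease Mcpt8 had 37, 39.1 and 17 TPM in Chd8 KO, against 130, 148 and 226 TPM in WT (-2.45 ± 0.39, adjusted p = 0.0026).

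The 3 that rose are proteases of mast cell granules, while other genes that mast cells express were lower. Ms4a2, the beta chain of the IgE receptor, had 3.82, 4.55 and 1.22 TPM in Chd8 KO, against 12.5, 13.7 and 18.9 TPM in WT (-2.02 ± 0.52, adjusted p = 0.025), a call lost under 6 settings. Il1rl1, the interleukin-33 receptor, had 2.15, 2.22 and 1.25 TPM in Chd8 KO, against 10.2, 12.7 and 8.35 TPM in WT (-1.99 ± 0.47, adjusted p = 0.0166). Cma1, a chymase, had 16.3, 5.5 and 3.86 TPM in Chd8 KO, against 0.481, 0.699 and 0.61 TPM in WT (2.36 ± 0.56, adjusted p = 0.0173), a call lost without Chd8 KO 1 or WT 1. Mcpt4, another chymase, had 10.4, 4.4 and 3.31 TPM in Chd8 KO, against 0.371, 0.721 and 0.206 TPM in WT (2.18 ± 0.43, adjusted p = 0.00722). Tpsb2, a tryptase, had 7.06, 2.6 and 2.65 TPM in Chd8 KO, against 0.382, 0.173 and 0.0931 TPM in WT (1.97 ± 0.39, adjusted p = 0.00678). Chd8 KO 1 was the highest in each, and no library overlapped, but a filter of at least 5 TPM removes all 3 from the test. Cpa3, the carboxypeptidase that mast cells share with basophils, was not called, at 59.2, 87.1 and 47.9 TPM in Chd8 KO and 46.9, 51.9 and 41.4 TPM in WT.

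The erythroid list had 15 of 34 lower and none higher (median -1.19). It had 10 to 13 lower when 1 library was left out and 20 in the 6 libraries alone. Ermap, a membrane protein that carries a blood group antigen, had 2.22, 5.47 and 1.91 TPM in Chd8 KO, against 64.2, 64.3 and 40.1 TPM in WT (-3.83 ± 0.58, adjusted p = 0.00193). Klf1, the erythroid transcription factor, had 5.2, 9.76 and 2.52 TPM in Chd8 KO, against 55.6, 67.8 and 31 TPM in WT. Car1, a carbonic anhydrase of early erythroid cells, had 25.2, 79.8 and 7.81 TPM in Chd8 KO, against 625, 689 and 304 TPM in WT (-4.26 ± 0.87, adjusted p = 0.00822). In these genes Chd8 KO 2 was the highest Chd8 KO library and WT 3 the lowest WT library, with a wide gap between the groups. Mfsd2b, a list member that exports sphingosine-1-phosphate from red cells and platelets, had 15.9, 16.4 and 7.41 TPM in Chd8 KO, against 72.4, 70.7 and 93.7 TPM in WT. Sphk1, which makes sphingosine-1-phosphate and is not in the erythroid list, had 0.617, 0.555 and 0.285 TPM in Chd8 KO, against 40.2, 46.4 and 14.1 TPM in WT (-4.38 ± 0.60, adjusted p = 0.00117). The sodium pump subunit Atp1b2, also outside the list, had 1.36, 4.54 and 0.638 TPM in Chd8 KO and 43.2, 47 and 24.9 TPM in WT. Gata1, the master erythroid and megakaryocytic factor, was called (-1.37 ± 0.42, adjusted p = 0.0483) but lost the call under 11 settings. Globin transcripts, a sign of red cell RNA, summed to 47.7 to 68.6 TPM in Chd8 KO and 77.3 to 174 TPM in WT.

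The megakaryocyte and platelet list had 5 of 29 lower and 1 higher (median -0.25), and 4 to 6 lower when 1 library was left out. Itga2b, the platelet integrin also used to mark stem cells biased to platelets, had 53, 47.4 and 50.3 TPM in Chd8 KO, against 95.7, 102 and 100 TPM in WT (-0.97 ± 0.14, adjusted p = 0.0017). The 1 higher was Serpine2, described above. No member of the mature neutrophil and monocyte list was called in limma out of 19, and 7 were called higher once WT 3 was left out. S100a8, a calprotectin subunit, had 25, 52.6 and 88 TPM in Chd8 KO, against 16.3, 4.31 and 253 TPM in WT. In the macrophage and dendritic cell list 9 of 25 were lower and none higher, with 6 lower without WT 1 and 3 higher without WT 3. H2-Ab1, an MHC class II chain, had 64.1, 116 and 43.5 TPM in Chd8 KO, against 172, 173 and 180 TPM in WT (-1.34 ± 0.29, adjusted p = 0.012). Irf8, the transcription factor of dendritic cells and monocytes, had 20, 33.7 and 17 TPM in Chd8 KO, against 81, 59.7 and 212 TPM in WT, so WT 3 held the highest level. The myeloid progenitor list had 4 of 29 lower and 1 higher, and 2 lower without WT 3, Chd8 KO 1 or Chd8 KO 3. The 1 higher was Csf2ra, a GM-CSF receptor chain, at 78.5, 75.6 and 71.5 TPM in Chd8 KO and 37.7, 29.1 and 50.4 TPM in WT (0.96 ± 0.19, adjusted p = 0.00776).

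Lineage transcription factors fell in 15 of 38 cases and rose in 1, with 7 lower without WT 1 and 8 without Chd8 KO 1 or Chd8 KO 2. Zbtb16, which encodes PLZF, had 1.16, 1.7 and 1.27 TPM in Chd8 KO, against 5.35, 5.26 and 5.51 TPM in WT (-1.43 ± 0.16, adjusted p = 0.000305). Bcl11a, a repressor needed for lymphoid development, had 48.8, 48.7 and 57 TPM in Chd8 KO, against 78.5, 72 and 68.6 TPM in WT (-0.50 ± 0.09, adjusted p = 0.00536). The inhibitors of helix-loop-helix factors split: Id2 had 5.39, 2.69 and 2.36 TPM in Chd8 KO, against 10.9, 11.5 and 16.8 TPM in WT (-1.69 ± 0.25, adjusted p = 0.00178). Id1 had 13.2, 9.2 and 5.2 TPM in Chd8 KO, against 2.55, 3.09 and 1.59 TPM in WT (1.53 ± 0.32, adjusted p = 0.00946).

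Surface markers of stem cells and multipotent progenitors had 8 of 25 higher and 2 lower, beside 9.65% of all genes higher and 6.98% lower. The count higher was 5 without WT 1, WT 3, Chd8 KO 2 or Chd8 KO 3, and 4 without WT 2 or Chd8 KO 1. Slamf1, which encodes CD150, a marker of long-term stem cells, had 18.7, 20.3 and 16.1 TPM in Chd8 KO, against 5.88, 7.78 and 5.97 TPM in WT (1.36 ± 0.17, adjusted p = 0.000537). Cd48, which stem cells lack and multipotent progenitors carry, rose as well, at 207, 265 and 228 TPM in Chd8 KO and 132, 145 and 152 TPM in WT (0.70 ± 0.13, adjusted p = 0.00485). Tek, the angiopoietin receptor, had 13.9, 12.9 and 14 TPM in Chd8 KO, against 6.53, 6.68 and 5.42 TPM in WT. The groups did not overlap in these genes. Procr, which encodes EPCR, had 56, 46.3 and 62.5 TPM in Chd8 KO, against 29.1, 18.8 and 12.3 TPM in WT (1.48 ± 0.40, adjusted p = 0.0291), a call lost under 6 settings. Cd34 was not called (0.19, adjusted p = 0.467).

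Stem cell transcription factors had 3 of 37 higher and 3 lower, close to the share over all genes, with none higher without Chd8 KO 1 and 1 without Chd8 KO 3. Ndn, an imprinted gene of stem cell quiescence, had 10.7, 7.33 and 7.72 TPM in Chd8 KO, against 4.08, 3.7 and 1.88 TPM in WT (1.21 ± 0.27, adjusted p = 0.0139). Runx1, the core factor of definitive blood formation, had 41.4, 46.6 and 43.3 TPM in Chd8 KO, against 60.3, 55.1 and 70.9 TPM in WT (-0.49 ± 0.10, adjusted p = 0.00678). No library overlapped in either gene.

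Receptors and ligands changed both ways, beside 9.65% of all genes higher and 6.98% lower. Cytokine and growth factor receptors had 6 of 47 higher and 11 lower. Il12rb2, the interleukin-12 receptor beta 2 chain, had 16.1, 14.5 and 19.1 TPM in Chd8 KO, against 7.13, 6.43 and 6.59 TPM in WT (1.18 ± 0.17, adjusted p = 0.00154). Chemokines, lipid mediators and their receptors had 2 of 39 higher and 12 lower, and 7 lower without WT 1 or Chd8 KO 1. Ccl3, a macrophage chemokine, had 1.87, 3.3 and 4.46 TPM in Chd8 KO, against 39, 15.8 and 76.3 TPM in WT (-3.20 ± 0.62, adjusted p = 0.00638). Itgb2, the common chain of leukocyte integrins, had 64.9, 59.3 and 63.4 TPM in Chd8 KO, against 26.6, 29.7 and 35.1 TPM in WT (1.02 ± 0.11, adjusted p = 0.000261), the 1 gene higher among 46 integrins and adhesion molecules, of which 7 were lower, and 11 without WT 2. TNF ligands and receptors had 8 of 26 higher and 1 lower, with 5 higher without WT 1, WT 3 or Chd8 KO 3 and 4 without Chd8 KO 1. Beside Tnfsf4, Eda2r and Tnfrsf10b they include the death receptor Tnfrsf21, at 43.9, 43.1 and 43.5 TPM in Chd8 KO and 30.2, 33.6 and 30 TPM in WT (0.46 ± 0.09, adjusted p = 0.008).

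Interferon-stimulated genes were near the background, with 2 of 50 higher and a median of 0.00 (log2), but the count turned on single libraries: 18 were higher without WT 3 and none without WT 1 or without Chd8 KO 1. Ifitm3, an antiviral membrane protein, had 950, 846 and 747 TPM in Chd8 KO, against 398, 417 and 654 TPM in WT (0.82 ± 0.19, adjusted p = 0.0141). All mice had received pI;pC, which is itself an interferon inducer. Over all genes 9.65% were higher and 6.98% lower. In the RAS-MAPK feedback list, 5 of 38 were higher and 3 lower, with 2 higher without WT 3, Chd8 KO 1 or Chd8 KO 3. Its ETS factor Etv5 had 33.4, 25.7 and 32 TPM in Chd8 KO, against 14.7, 12.8 and 8.88 TPM in WT (1.27 ± 0.25, adjusted p = 0.00722), and Rasa4, a RAS GTPase activating protein, had 15.1, 24.6 and 23.5 TPM in Chd8 KO, against 73.1, 44.9 and 109 TPM in WT (-1.74 ± 0.31, adjusted p = 0.0043). Of the Wnt pathway, in which CHD8 is known as an inhibitor of beta-catenin, 4 of 33 genes were lower and none higher, with 1 lower without Chd8 KO 3 and 2 without WT 1, WT 3, Chd8 KO 1 or Chd8 KO 2.

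Few cell cycle genes were called beside the rise of Cdkn1a. The S phase list had 2 of 29 higher and 3 lower (median 0.13) and the mitosis list 2 of 28 higher and none lower (median 0.09). Leaving out 1 library gave 1 to 3 higher and 0 to 2 lower in the S phase list and 1 or 2 higher in the mitosis list. The S phase list had 4 higher with the replicate number as a block, 5 in the 6 libraries alone and 1 after median-of-ratios scaling. Its groups did not overlap at 11 of 29 genes upward and 4 downward, called or not, beside 22.7% and 14.4% of all genes. Mki67, the proliferation antigen, had 174, 137 and 197 TPM in Chd8 KO and 163, 177 and 176 TPM in WT, with overlapping groups. Cdk1, the mitotic kinase, had 307, 297 and 318 TPM in Chd8 KO, against 247, 246 and 245 TPM in WT (0.32 ± 0.06, adjusted p = 0.00772). E2f2, a transcription factor of S phase entry, had 6.96, 6.04 and 5.48 TPM in Chd8 KO, against 16.9, 12.5 and 22.2 TPM in WT (-1.32 ± 0.31, adjusted p = 0.0178), a call lost under 4 settings.

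Members of the housekeeping lists shifted by small amounts, beside 9.65% of all genes higher and 6.98% lower. The counts depended on the scaling: after median-of-ratios scaling 1038 of all 13162 genes were higher, against 1270 without it. Proteasome subunits had 18 of 40 higher and none lower (median 0.23). Psma2, a subunit of the core ring, had 325, 353 and 310 TPM in Chd8 KO, against 253, 257 and 242 TPM in WT (0.39 ± 0.06, adjusted p = 0.00275). The proteasome count was 7 without WT 1 or WT 3 and 3 without Chd8 KO 1 or Chd8 KO 2, and 4 after median-of-ratios scaling and 6 after quantile normalization, so few members passed under those settings. Nuclear genes of respiratory complexes I to V had 26 of 84 higher and 3 lower, with 15 higher without WT 1, 14 without WT 3 or Chd8 KO 1, 11 without Chd8 KO 2, 17 without Chd8 KO 3 and 14 after median-of-ratios scaling. Ndufa7, a complex I subunit, had 312, 323 and 316 TPM in Chd8 KO, against 245, 243 and 217 TPM in WT. Cox6a2, a muscle-type complex IV subunit, went the other way, at 0.251, 1.05 and 0.586 TPM in Chd8 KO and 18.6, 12.7 and 9.27 TPM in WT (-3.13 ± 0.28, adjusted p = 7.78e-05). Ribosome biogenesis factors had 12 of 47 higher and none lower, with 3 to 7 higher without WT 1, WT 3 or any 1 Chd8 KO library and 7 after median-of-ratios scaling. Mitochondrial ribosomal proteins had 14 of 80 higher and 4 lower, with 7 or 8 higher without WT 1, WT 3 or any 1 Chd8 KO library and 8 after median-of-ratios scaling.

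Cytoplasmic ribosomal proteins went the opposite way, with 24 of 80 lower and 4 higher (median -0.13), and 15 lower without Chd8 KO 1. Rps4x, a small subunit protein, had 1758, 1867 and 1936 TPM in Chd8 KO, against 3567, 3232 and 3251 TPM in WT (-0.85 ± 0.07, adjusted p = 3.43e-05). Rpl29 had 1080, 1110 and 1027 TPM in Chd8 KO, against 1854, 2035 and 1761 TPM in WT (-0.81 ± 0.07), while Rpl27 rose, at 275, 274 and 272 TPM in Chd8 KO and 133, 136 and 97.7 TPM in WT (1.17 ± 0.11, adjusted p = 0.000119). The libraries were tight and apart in all 3. Ribosomal proteins have many processed pseudogenes with near-identical sequence, so the split of reads between a gene and its copies is uncertain. Nucleotide and one-carbon synthesis had 10 of 48 higher and 2 lower, and 2 to 4 higher without WT 1, WT 3 or any 1 Chd8 KO library. Gss, glutathione synthetase of the redox list, had 40.4, 39 and 35.8 TPM in Chd8 KO, against 21.4, 19.6 and 17.7 TPM in WT (0.94 ± 0.09, adjusted p = 0.000119). Glycolysis and pentose phosphate genes had 8 of 41 higher and 5 lower, with 3 higher and 1 lower without Chd8 KO 1. The glucose transporter Slc2a1 had 26.8, 24.1 and 26.1 TPM in Chd8 KO, against 16.3, 15.1 and 13 TPM in WT (0.76 ± 0.14, adjusted p = 0.00444).

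**Figure D4:**
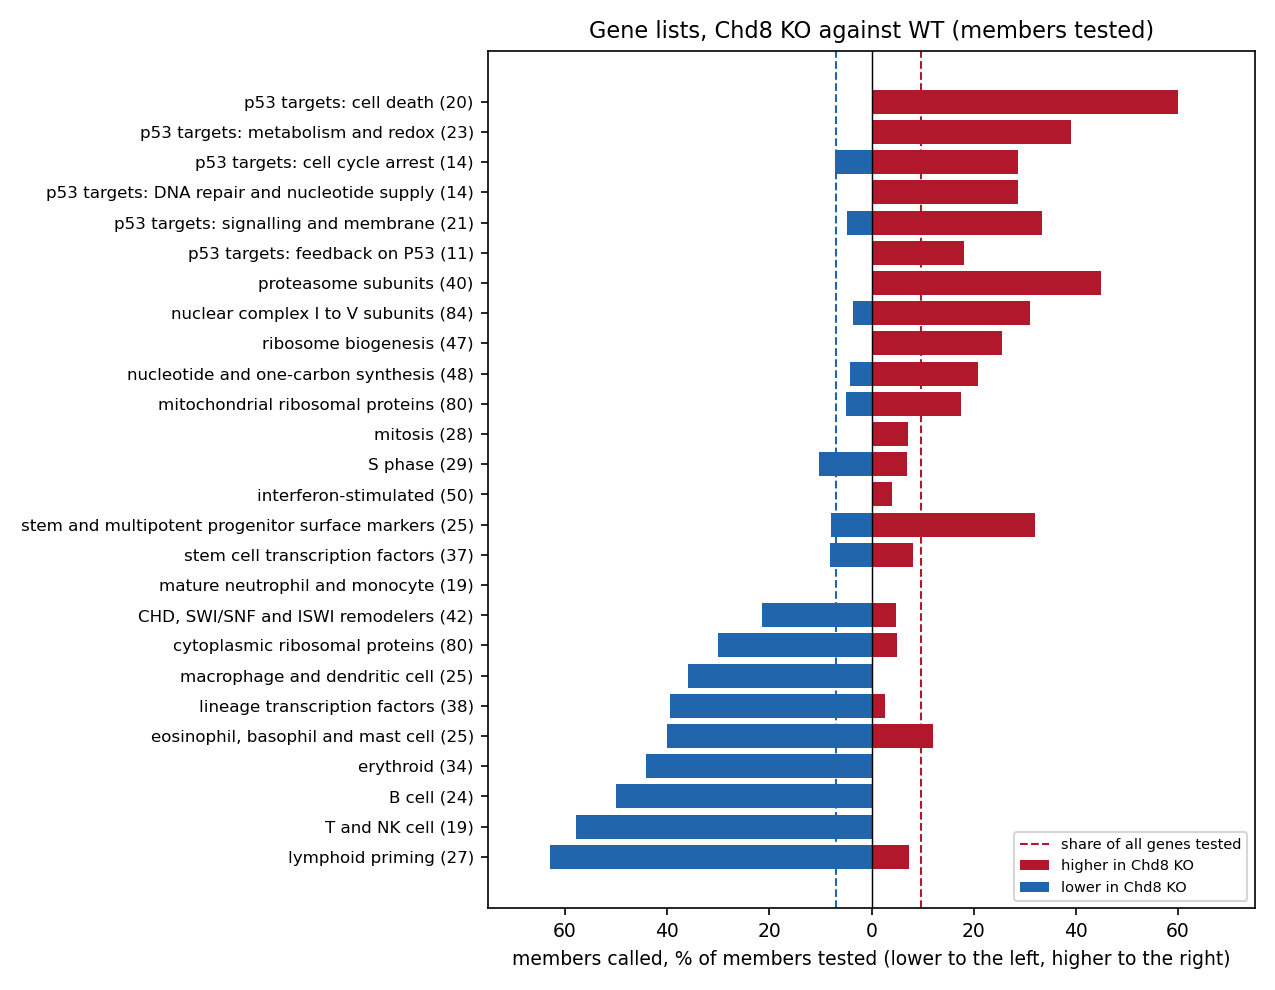
Number of tested members called higher and lower in Chd8 KO relative to WT, as a percent of those tested (x axis), for the gene lists (y axis), with the share over all 13162 genes (9.65% higher, 6.98% lower) as lines. The death targets of P53 (12 of 20 higher) and the lymphoid priming list (17 of 27 lower) lie far from these lines, the S phase and mitosis lists near them. The lists were chosen with earlier results of these data known, so the distance from the lines is descriptive only.

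Chromatin remodelers of the CHD, SWI/SNF and ISWI families had 9 of 42 lower and 2 higher, and 5 lower without WT 1, WT 3, Chd8 KO 1 or Chd8 KO 2. Chd8 is itself one of the 9. Bcl7b, a SWI/SNF accessory subunit, had 20.5, 19.6 and 21.9 TPM in Chd8 KO, against 35.2, 32.8 and 35.6 TPM in WT (-0.72 ± 0.09, adjusted p = 0.000499). Dpf3, a histone reader of the same complex, had 0.195, 0.179 and 0.298 TPM in Chd8 KO, against 2.84, 4.22 and 3.6 TPM in WT (-1.88 ± 0.27, adjusted p = 0.00146). The relatives of Chd8 were looked at after their values were seen. Chd6, of the same subfamily, had 18, 16.7 and 25.8 TPM in Chd8 KO and 35.1, 22.9 and 41.3 TPM in WT, overlapping through Chd8 KO 3 and WT 2, and its call as lower (-0.67 ± 0.21, adjusted p = 0.0485) was lost under 8 settings. Chd7 (0.00 ± 0.21), Chd9 (0.16 ± 0.29), Chd1 (0.22 ± 0.08), Chd2 (-0.22 ± 0.15), Chd3 (-0.19 ± 0.17) and Chd4 (-0.04 ± 0.09) were not called. Histone methylation, Polycomb and Trithorax genes had 2 of 59 higher and 3 lower, with 1 higher and 2 lower without WT 1, WT 3, Chd8 KO 1 or Chd8 KO 2 and 1 higher without Chd8 KO 3. There were, among genes of DNA methylation and imprinting, 4 of 26 higher and none lower, with 2 higher without WT 3 and 1 without Chd8 KO 1. The counts of these lists stand beside 9.65% of all genes higher and 6.98% lower.

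Transcripts were also tested one by one. Of 38181 transcripts 955 were higher (2.5%) and 689 lower (1.8%), 4.31% together, and 18 genes had called transcripts of both directions. The transcripts called numbered 711 without WT 1, 923 without WT 3, and 599, 647 and 826 without Chd8 KO 1, 2 and 3. Vpreb1, the other part of the surrogate light chain, is one: ENSMUST00000075017.4 had 0.562, 0.471 and 1.25 TPM in Chd8 KO, against 55, 18.7 and 74 TPM in WT (-4.66 ± 0.89, adjusted p = 0.016). The transcript ENSMUST00000132272.1 of the same gene had 10.6, 8.52 and 10.5 TPM in Chd8 KO, against 0.81, 1.51 and 0.902 TPM in WT (2.40 ± 0.23, adjusted p = 0.000296). The summed gene level joins these opposite changes and was not called in limma (-1.94, adjusted p = 0.135). Bscl2, which encodes the lipid droplet protein seipin, had 66.8, 61.9 and 64.4 TPM of ENSMUST00000086058.12 in Chd8 KO, against 27.3, 30.2 and 30.4 TPM in WT, while its ENSMUST00000159634.7 had 7.2, 3.92 and 8.74 TPM in Chd8 KO, against 21.5, 28.4 and 17.7 TPM in WT. Rab11b, a GTPase of recycling endosomes, had 26.4, 25.5 and 30.6 TPM of ENSMUST00000174744.1 in Chd8 KO, against 1.43, 2.31 and 5.01 TPM in WT (2.96 ± 0.48, adjusted p = 0.00711). In Rpl21, ENSMUST00000075453.8 had 8.66, 444 and 9.42 TPM in Chd8 KO, against 1353, 1559 and 1334 TPM in WT, so Chd8 KO 2 lay between the groups.

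Some of the largest differences fell on predicted genes and pseudogenes, which are uncertain for the reason given for the ribosomal proteins. Genes with identical values were counted once. Then 17 were at least 4-fold higher (on TPM + 1) in every Chd8 KO library than in any of the other 9 RNA libraries. By name, 7 of the 17 were predicted genes, pseudogenes or clones. They include 9030617O03Rik and D630023F18Rik, clone names that do not mark a pseudogene. A further 9 genes were at least 4-fold lower, 3 of them predicted genes or pseudogenes by name. All these genes were listed after their values were seen. Gm13394, a pseudogene on chromosome 2, had 2194, 2104 and 978 TPM in Chd8 KO, against 0.904, 0.267 and 0.893 TPM in WT (9.96 ± 0.31, adjusted p = 1.5e-08). Gm15920 had 172, 177 and 290 TPM in Chd8 KO, against 0, 0.605 and 0 TPM in WT. Gm10359, a pseudogene on chromosome 5, was listed at 0 in every Chd8 KO library and had 264, 205 and 217 TPM in WT. Between the groups nothing lay in the gap in these 3. The values of Gm10359 and Gm12671 were identical in every library, as were those of Gm10240 and Gm13370, so each pair was counted as 1 measurement. Hist1h2al, a histone gene, had 5.76, 5.55 and 7.96 TPM in Chd8 KO and was listed at 0 in all WT libraries.

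**Figure D5:**
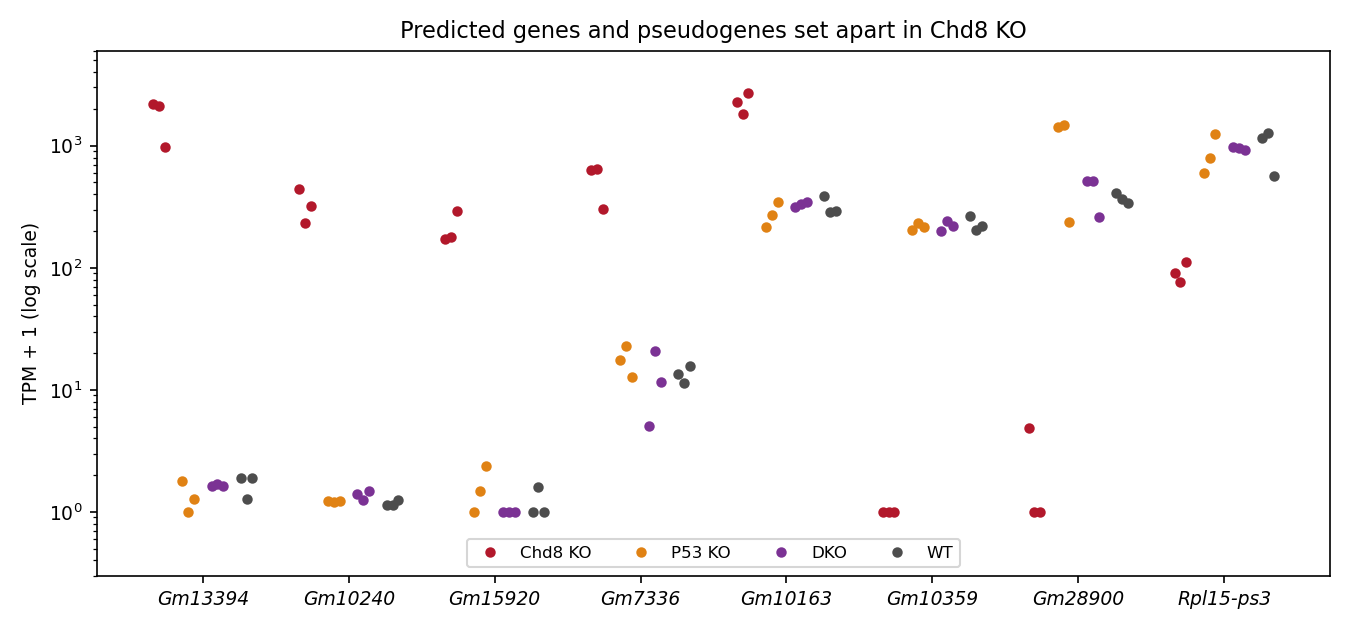
TPM + 1 on a log axis (y) in all 12 RNA libraries (points, coloured by genotype) for 8 of the predicted genes and pseudogenes that differ at least 4-fold between every Chd8 KO library and each of the other 9 (x axis). Gm13394 lies at 978 to 2194 TPM in Chd8 KO and below 1 TPM in WT, and Gm10359 at 0 TPM in Chd8 KO and 205 to 264 TPM in WT.

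The response to Chd8 loss with P53 present was also set against its response without P53, as the difference between Chd8 KO minus WT and DKO minus P53 KO. The difference passed the test at 237 genes, 1.8% of those tested, with 110 above 0 (0.836%) and 127 below 0 (0.965%). The count rested on single libraries: it was 1562 without P53 KO 3, and 122 to 144 without WT 1, Chd8 KO 1, Chd8 KO 2, P53 KO 1, P53 KO 2 or any 1 DKO library. Of the 36 P53 targets called higher, 25 also passed. Of the at least 4-fold changes, 36 of the 51 rises and 38 of the 112 falls passed. These genes and the targets were picked for their change between Chd8 KO and WT, which enters the difference tested, so nothing is read from these shares. For some other genes the group means differed in the same direction in both backgrounds. DKO against P53 KO was not tested by itself, and P53 KO 1 and P53 KO 2 came from another sequencing run. Rps4x averaged 1789 TPM in DKO and 3667 TPM in P53 KO libraries, and the difference between the responses was not called (0.18, adjusted p = 0.307). Zfp580, a zinc finger gene, had 0.327, 0.21 and 0.326 TPM in Chd8 KO, against 7.82, 6.07 and 7.52 TPM in WT, and averaged 0.677 TPM in DKO and 10.1 TPM in P53 KO libraries. Gss averaged 37.8 TPM in DKO and 20.8 TPM in P53 KO libraries. A difference that misses the threshold does not show that the responses are alike.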

How the data were processed

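RNA was measured in sorted LSK cells of 4 genotypes, 3 libraries each. The authors deposited TPM per transcript, and per the submitters' processing notes reads were handled with Trim Galore 0.4.2, cutadapt 1.9.1, STAR 2.6.1e and featureCounts 1.6.2 on GRCm38; the sources used here do not give the tool that made the TPM values. TPM is scaled to the same total in every library, so depth is unknown and no counting interval is given.

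TPM of 105129 transcripts was summed per gene symbol (Python 3.11.15, pandas 2.3.3). Genes averaging 1 TPM or more across the 12 libraries were fitted as log2(TPM + 1) on genotype in limma 3.58.1 (R 4.3.3; lmFit, contrasts and eBayes with trend), which leaves 8 residual degrees of freedom. Tests are two-sided, with Benjamini-Hochberg adjustment over all 13162 genes or 38181 transcripts and a threshold of 0.05. The same fit gave the difference between the Chd8 responses with and without P53. The procedure was tested on simulated data. Gene positions and promoters come from RefSeq on GRCm38.p6.

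Genes are named by rule: a fixed set of gate, P53 and cycle genes; the 15 largest rises and falls without overlap and with at least 5 TPM; the 8 largest TPM differences each way; up to 6 members of each gene list by p; 8 genes with opposing transcripts; and lineage markers. Others from the lists, named for their role, were chosen after their values were seen. The members, gene lists and tests were chosen with earlier results of these data known. Alternatives were a pseudocount of 0.1, other filters, median-of-ratios and quantile scaling, a replicate block, a Y-linked covariate, 1 sequencing run of 10 libraries, the 6 libraries alone, and each library left out.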

Additional observations from a re-analysis of the deposited data

Results flagged for a closer look

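These genes are listed because the difference between the Chd8 responses with and without P53 passed the threshold. Genes were named largely for their change between Chd8 KO and WT. That change enters the difference tested, so the choice of genes favours passing it. The values are the difference between the 2 responses (Chd8 KO minus WT, less DKO minus P53 KO, log2 of TPM + 1), each past the limma threshold. Positive values mean a larger rise with P53 present. Among arrest and death genes the difference was 4.09 for Cdkn1a, 1.38 for Bax, 2.49 for Bbc3, 3.53 for Zmat3, 3.29 for Eda2r and 2.33 for Perp. Among other P53 targets it was 3.99 for Phlda3, 3.83 for Sulf2, 2.75 for Zfp365 and 3.20 for Ak1. Outside those lists it was 3.22 for Tnfsf4, 3.23 for Fam212b, 3.14 for Hmcn2, 2.36 for Mmp2, 3.02 for Serpine2 and 2.27 for Fam198b. Negative values were met in B cell genes, at -6.83 for Igll1, -5.38 for Cd79a and -4.98 for Blnk, in the T cell receptor segment Trbj1-4 at -4.54, in the eosinophil gene Ear2 at -6.33, and in the erythroid gene Ermap at -4.61 and the sodium pump subunit Atp1b2 at -4.13. Of the P53 KO libraries, numbers 1 and 2 came from another sequencing run. Their mitochondrial share was 2.117 and 1.904% of TPM, against 5.60% in P53 KO 3, 6.03 to 6.27% in DKO, 5.84 to 6.55% in Chd8 KO and 5.33 to 6.97% in WT. Ribosomal protein transcripts made 20.3 to 23.2% in P53 KO and 16.3 to 16.9% in DKO libraries. The part of these values in the differences was not tested. Also, the 3 DKO libraries had 1.80 to 2.03 TPM over 4 Y-linked genes. The genes past the threshold numbered 156 with a Y-linked covariate, against 237 in all. Of the 237, 110 lay above 0 and 127 below 0. Without P53 KO 3 these counts were 567 and 995, without P53 KO 1 they were 75 and 63, and without P53 KO 2 they were 66 and 59. The run of 10 libraries keeps only P53 KO 3 of that genotype, so nothing is read from its count.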

How the results depend on the processing

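Depth is unknown for TPM, so how far it limits low genes cannot be said. With each library left out in turn, genes called numbered 1154 to 2101, transcripts 599 to 1602 and genes whose responses differed with P53 122 to 1562, the last value without P53 KO 3. Transcripts called were 2492 in the run of 10 libraries and 1061 both with a Y-linked covariate and in the 6 libraries alone. Genes whose responses differed numbered 153 at a mean of at least 5 TPM, 81 in the run of 10 libraries and 156 with the Y-linked covariate. The cause of these shifts was not tested. Of the P53 KO libraries the run of 10 keeps only P53 KO 3, so nothing is read from its count of differing responses. The replicate block gave 1926 genes, 1225 transcripts and 223 genes whose responses differed. Chd8 KO and WT libraries of the same number correlated in their deviations at 0.118, 0.09 and 0.049, so the numbers were not taken as pairs. Of 5884 values of the 397 named genes under an alternative, 5339 kept direction and side of the threshold, 441 lost the call, 104 gained one and 0 reversed, and 389 of 1920 list counts moved by over 1.5 times.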
